A study of Mus musculus with 3 samples.

Results

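Immediate early genes were followed across the cell types of thawed fetal ovarian somatic cells (FOSCs), as 10 listed genes of 18738 in the count tables. The 10 genes were taken by name, not by a threshold on their values, but with earlier results of these data known. They were Fos, Fosb, Jun, Junb, Jund, Atf3, Egr1, Ier2, Klf6 and Nfatc2. All 10 were listed in the tables and all 10 passed the low-count filter. The samples were 3 cryopreserved lots, numbered 26, 29 and 30, of 1 condition. Each lot was made from E12.5 ovaries of CD1 embryos collected from 10 time-mated mice, with the mesonephros removed. The ovaries were digested with trypsin, depleted of germ cells by magnetic beads with SSEA1 and CD31 antibodies, frozen in Cell Banker 2, thawed, and profiled by 10X Genomics 3′ scRNA-seq. No fresh or unfrozen cells are among these samples, so levels present in the fetal ovary and levels reached during digestion, freezing or thaw cannot be told apart. In what follows, values for the lots are always given in the order 26, 29 and 30.

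Immediate early genes are transcribed within minutes of a stimulus, from transcription factors that are already in the cell, so that no new protein is needed first. Many of their products are transcription factors themselves. FOS and JUN family proteins, with ATF relatives, pair through leucine zippers to form AP-1, which carries growth factor, cytokine and stress signals to later genes. Fos needs a JUN partner to bind DNA, whereas JUN proteins can also pair with one another. Nfatc2 is better known as a calcineurin-dependent factor of calcium signalling than as an immediate early gene.

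The promoters of 4 members are shown because they are the ones, of the 8 with a RefSeq promoter sequence, that hold TGACG, the core of the cAMP response element, in the 250 bases before the transcript start. Each line gives the 150 bases before the start, 5′ to 3′ on the gene's strand (RefSeq, GRCm38.p6), with TGACG on either strand and the TATA motif TATAAA in capitals.
Fos, chr12:85473740-85473889, plus strand: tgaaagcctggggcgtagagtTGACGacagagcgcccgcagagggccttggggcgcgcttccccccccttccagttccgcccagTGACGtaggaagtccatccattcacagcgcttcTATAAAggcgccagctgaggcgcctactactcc
Fosb, chr7:19310046-19310195, minus strand: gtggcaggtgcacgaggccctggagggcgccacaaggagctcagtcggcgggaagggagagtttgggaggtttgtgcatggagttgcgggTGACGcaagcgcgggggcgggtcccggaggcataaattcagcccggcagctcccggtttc
Junb, chr8:84978749-84978898, minus strand: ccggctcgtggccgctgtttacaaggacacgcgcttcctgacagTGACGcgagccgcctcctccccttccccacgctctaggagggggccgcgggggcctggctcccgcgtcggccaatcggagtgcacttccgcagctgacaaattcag
Atf3, chr1:191183334-191183483, minus strand: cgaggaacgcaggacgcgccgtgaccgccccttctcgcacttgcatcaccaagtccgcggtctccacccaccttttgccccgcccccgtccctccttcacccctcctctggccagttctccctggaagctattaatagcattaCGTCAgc

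TGACG began 129 and 66 bases before the start of Fos, 60 before Fosb, 106 before Junb and 7 before Atf3. Of 32851 mouse promoters searched over the same 250 bases on both strands, 17.8% held TGACG. Fos also held TATAAA, 33 bases before its start, a motif found in 12.4% of promoters, and Nfatc2 held it 132 bases before its start. The EGR motif GCGNGGGCG was found in Fosb, 50 bases before the start, and in 4.70% of promoters. The full cAMP response element TGACGTCA (1.55% of promoters), which contains TGACG, the AP-1 motif TGANTCA (6.75%) and the CArG box bound by SRF (1.47%) were not found in these windows. For Junb and Jund, the bases after the RefSeq start did not match a GENCODE transcript of the gene. The Jund window, chr8:70697489-70697738, ends short of the GENCODE start given below, so a motif absent from it may lie nearer that start. In the GENCODE annotation of GRCm38, Fos lies at chr12:85473890-85477273, Fosb at chr7:19302696-19310051, Jun at chr4:95049034-95052222 and Junb at chr8:84974484-84978718. Jund lies at chr8:70698949-70700616, Atf3 at chr1:191170296-191218039, Ier2 at chr8:84661331-84662852, Klf6 at chr13:5861482-5870394 and Nfatc2 at chr2:168476410-168601657. Jun, Junb, Jund and Atf3 each overlap another gene on the opposite strand (Junos, Prdx2, Gm11175 and Gm24748). The strand setting of the counting was not given in the sources used here, so their counts are uncertain to that extent.

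After the filters of the study's methods, 28971 of 29103 barcodes remained, with median UMIs per cell of 8949 to 11595 across lots. Pairs of lots shared 20 to 30 barcodes. Clustering, done without the 10 genes and without the gene lists used below, gave 20 clusters, named from marker lists and written here as "-like" since the names were rebuilt. The 3 large classes were pre-granulosa-like (3266 to 4509 cells per lot), epithelial-like (1626 to 2442) and stromal-like cells (1788 to 2148), with 8 or more of their 9 to 11 markers raised in every cluster. Germ-like (337 to 749) and endothelial-like cells (87 to 174) raised all of their markers. A cluster of 21 to 68 cells raised all 9 macrophage markers, but its leading genes held 4 of them (Tyrobp, Lyz2, C1qa, C1qb) beside genes known from neutrophils (Camp, Ngp, S100a8 and S100a9). It was therefore given no cell type name and is called the S100a8/C1qa cluster. Red-blood-cell-like cells (20 to 36) were set beside these classes, and whether they transcribe the 10 genes themselves was not tested. UMIs were summed per class and lot and are given as CPM, the UMIs of a gene scaled to the same total in each sum. Classes were compared within lots by edgeR's quasi-likelihood test with the lot as a block. The error of each gene was estimated from all 18 sums of 6 classes and 3 lots, not from the 2 classes of a comparison alone, and the lots are the replicates.

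**Figure D1:**
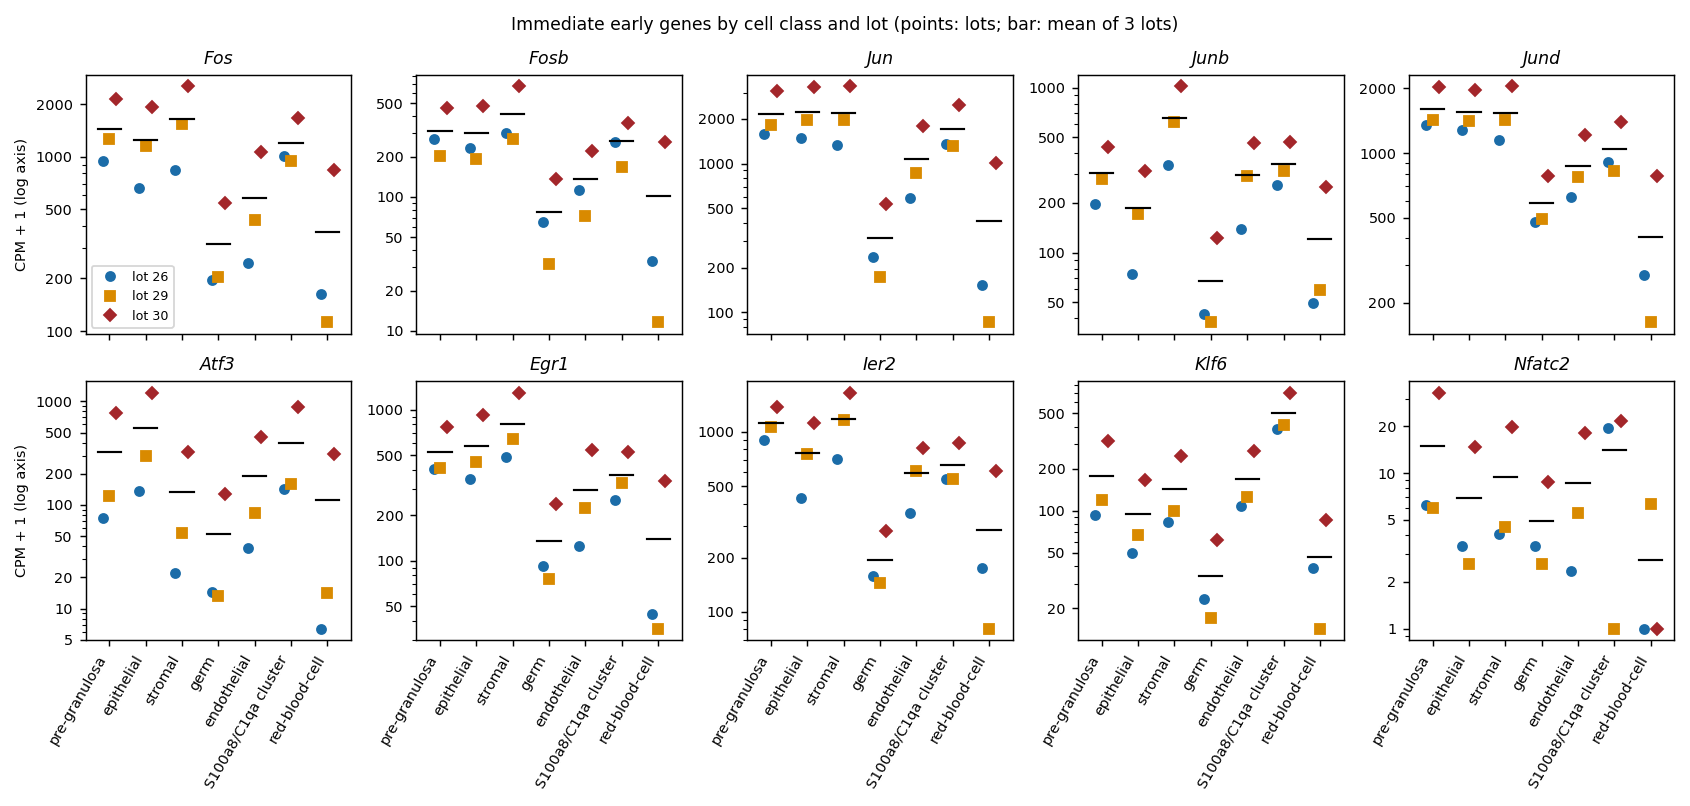
CPM + 1 of each gene (log axis) in 7 cell classes, 1 point per lot, with the mean of the 3 lots as a bar. Lot 30 is the highest point of every gene in the 6 classes other than red-blood-cell-like cells, and germ-like cells lie at the bottom of those 6 for 9 of the 10 genes.

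Fos, the inducible partner of JUN proteins, was measured at 942, 1258 and 2138 CPM in cells of the pre-granulosa-like class. Epithelial-like cells held 656, 1142 and 1932 CPM, and stromal-like cells 836, 1540 and 2527 CPM. The 3 classes overlapped widely, and lot 30 was the highest in each. Pre-granulosa-like cells were above stromal-like cells in lot 26 and below them in lots 29 and 30, with a fitted log2 fold change of -0.03 (SE 0.20, adjusted p = 0.897). Between epithelial-like and stromal-like cells the log2 fold change was -0.32 (SE 0.21, adjusted p = 0.216), although stromal-like cells were higher in each lot, with within-lot log2 ratios of -0.35, -0.43 and -0.39. Pre-granulosa-like over epithelial-like cells gave 0.29 (SE 0.20, adjusted p = 0.248). No comparison of Fos among the large classes passed the test, while the order of epithelial-like and stromal-like cells was the same in each lot.

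Its relative Fosb reached 301, 267 and 668 CPM in stromal-like cells. Pre-granulosa-like cells had 271, 199 and 457 CPM, and epithelial-like cells had 231, 192 and 476 CPM. Stromal-like cells had the highest Fosb of the 6 classes in every lot, and lot 29 had the lowest level in each of the 3 classes. Epithelial-like cells were lower than stromal-like cells by a log2 fold change of -0.38 (SE 0.13, adjusted p = 0.0202), a call that was lost without lot 30. Pre-granulosa-like cells were also below stromal-like cells in each lot, without passing edgeR's test (log2 fold change, pre-granulosa-like over stromal-like, -0.29, SE 0.13, adjusted p = 0.0598).

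Jun, which encodes the main DNA-binding partner of FOS, was at 1574, 1826 and 3098 CPM in the pre-granulosa-like class. The level was 1487, 1960 and 3259 CPM in the epithelial-like class and 1335, 1973 and 3310 CPM in stromal-like cells. No pair of these classes kept 1 order in all 3 lots, and the 3 fitted log2 fold changes lay between -0.01 and 0.11 (SE 0.17 each, adjusted p = 0.640, 0.976 and 0.646).

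Junb, a JUN protein that often dampens JUN activity, was called in all 3 comparisons of the large classes. It was at 339, 616 and 1019 CPM in stromal-like cells, while pre-granulosa-like cells had 195, 278 and 435 CPM and epithelial-like cells 73.2, 170 and 310 CPM. The order stromal-like, pre-granulosa-like, epithelial-like held in each lot, and the levels of epithelial-like and stromal-like cells did not overlap between lots. The log2 fold change was -0.96 (SE 0.21, adjusted p = 0.00204) for pre-granulosa-like over stromal-like cells, 0.87 (SE 0.22, adjusted p = 0.00454) for pre-granulosa-like over epithelial-like cells and -1.83 (SE 0.22, adjusted p = 3.14e-05) for epithelial-like over stromal-like cells. All 3 were called with each lot left out in turn. Within stromal-like cells, Junb was at 404 to 1161 CPM in the cluster led by Myh8 and Ngfr and at 137 to 733 CPM in the cluster led by Dkk2 and Foxd1.

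Jund, the JUN protein that is usually present without stimulation, had the smallest ratio of lot 30 to lot 26 of all members in the large classes. Pre-granulosa-like cells held 1344, 1424 and 2025 CPM of it, epithelial-like cells held 1274, 1406 and 1975 CPM and stromal-like cells held 1154, 1428 and 2045 CPM. The classes overlapped almost completely, with log2 fold changes of 0.07 to 0.16 among them and adjusted p = 0.0537, 0.417 and 0.313. Lot 30 exceeded lot 26 by 1.51 to 1.77 times in these classes, against 8.91 to 15.4 times for Atf3.

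Atf3, a stress-responsive ATF protein that acts mostly as a repressor, had the largest fold changes of any member in both comparisons with stromal-like cells and the largest ratios of lot 30 to lot 26 in the large classes. Epithelial-like cells held 136, 299 and 1209 CPM, pre-granulosa-like cells 73.6, 121 and 779.7 CPM and stromal-like cells 20.9, 52.4 and 323 CPM. The order epithelial-like, pre-granulosa-like, stromal-like was the same in each lot, while the ranges over lots overlapped because lot 30 was far above the others. The log2 fold change was 2.40 (SE 0.22, adjusted p = 2.83e-06) for epithelial-like over stromal-like cells, 1.48 (SE 0.21, adjusted p = 8.11e-05) for pre-granulosa-like over stromal-like cells and -0.92 (SE 0.20, adjusted p = 0.00214) for pre-granulosa-like over epithelial-like cells. These calls were also made without each lot in turn. Among epithelial-like cells the cluster led by cell division genes (Cdkn3, Cdc20, Ccnb1) had the lowest Atf3 in each lot, at 92.4, 215 and 903 CPM, beside 204, 371 and 1435 CPM in the cluster led by Hsd17b2 and Krt7.

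Egr1, a zinc finger factor induced by MAP kinase signalling through SRF and ELK proteins, was at 489.8, 642 and 1297 CPM in stromal-like cells. Pre-granulosa-like cells held 405, 409 and 771 CPM and epithelial-like cells 349, 448 and 928 CPM. Stromal-like cells were the highest class in each lot, and the ranges overlapped. The log2 fold changes over stromal-like cells were -0.46 (SE 0.16, adjusted p = 0.0255) for pre-granulosa-like and -0.43 (SE 0.16, adjusted p = 0.0430) for epithelial-like cells. Both calls were lost without lot 29, without lot 30 and when called doublets were removed. The order of pre-granulosa-like and epithelial-like cells turned between lot 26 and the others, with a log2 fold change of -0.03 (SE 0.16, adjusted p = 0.892).

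The nuclear protein gene Ier2 was at 431, 754 and 1118 CPM in epithelial-like cells. Pre-granulosa-like cells had 905, 1060.4 and 1379 CPM, and stromal-like cells had 708, 1169 and 1651 CPM. Epithelial-like cells were the lowest of the 3 in each lot. Pre-granulosa-like cells were higher than epithelial-like cells by a log2 fold change of 0.64 (SE 0.17, adjusted p = 0.00766). Epithelial-like cells were lower than stromal-like cells by -0.56 (SE 0.17, adjusted p = 0.0184), a call lost without lot 30. Pre-granulosa-like and stromal-like cells did not differ beyond the spread (log2 fold change 0.08, SE 0.17, adjusted p = 0.717).

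Klf6, a Krüppel-like zinc finger factor, stood in the order pre-granulosa-like (91.4, 118 and 316 CPM), stromal-like (81.6, 98.8 and 244 CPM) and epithelial-like (48.8, 66.0 and 165 CPM). That order was the same in each lot. Epithelial-like cells were lower than pre-granulosa-like cells (log2 fold change, pre-granulosa-like over epithelial-like, 0.92, SE 0.15, adjusted p = 0.000151) and lower than stromal-like cells (-0.56, SE 0.15, adjusted p = 0.00762). The smaller difference of pre-granulosa-like over stromal-like cells, 0.36 (SE 0.15, adjusted p = 0.0458), was lost without lot 29 and without lot 30. Within pre-granulosa-like cells the cluster led by Spink4 and Fst held 122, 179 and 462 CPM of Klf6, and the cluster led by Gng13 held 71.9, 86 and 239 CPM.

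Nfatc2 was scarce, so its sums rest on few UMIs outside the large classes. Its level was 5.19, 4.97 and 31.8 CPM in pre-granulosa-like cells (228, 141 and 1694 UMIs), 2.40, 1.61 and 13.8 CPM in epithelial-like cells and 3.08, 3.49 and 18.8 CPM in stromal-like cells. Lot 30 was 5.76 to 6.13 times lot 26 in the 3 classes, and lots 26 and 29 lay close together. Pre-granulosa-like cells were the highest of the 3 in each lot, with log2 fold changes of 1.26 (SE 0.20, adjusted p = 4.99e-05) over epithelial-like and 0.79 (SE 0.20, adjusted p = 0.00262) over stromal-like cells. Epithelial-like cells were below stromal-like cells in each lot without passing the test (-0.47, SE 0.22, adjusted p = 0.0943).

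**Figure D2:**
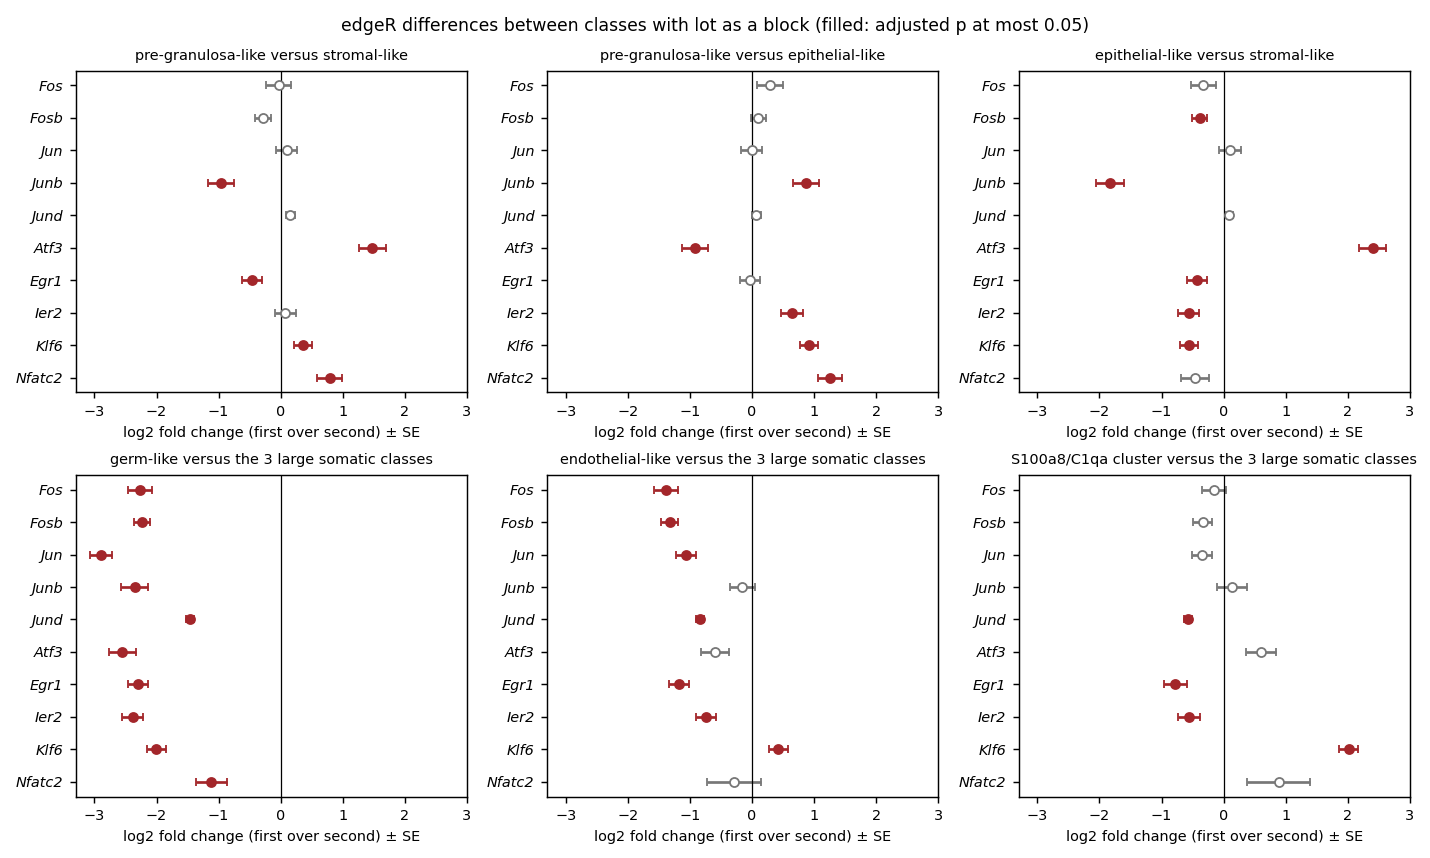
Log2 fold change of each gene in the 6 class comparisons, with its SE as a bar, from edgeR's quasi-likelihood test with the lot as a block. Filled points passed an adjusted p of 0.05, and the points of the germ-like comparison are all filled and below 0.

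Counted over the 10 genes, the comparison of pre-granulosa-like with stromal-like cells called 3 higher (Atf3, Nfatc2, Klf6) and 2 lower (Junb, Egr1). Among all 14982 genes tested, 66.6% were called in that comparison, 32.8% higher and 33.8% lower, so that the members' share of 5 in 10 was no larger than the background. The members' median log2 fold change was 0.087, against -0.012 over all genes tested. Pre-granulosa-like against epithelial-like cells called 4 higher (Nfatc2, Klf6, Junb, Ier2) and 1 lower (Atf3), beside a background of 61.5% (31.3% higher, 30.2% lower). The medians there were 0.19 for the members and 0.0099 for all genes.

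Epithelial-like against stromal-like cells called 1 higher (Atf3) and 5 lower (Junb, Ier2, Klf6, Egr1, Fosb), where 52.5% of all genes were called, 26.4% higher and 26% lower. The members' median was -0.41 and that of all genes 0.0061. Atf3 thus went against the 5 other members that were called here. Levels of the lots that did not overlap between classes were rare: 1 of 10 members for epithelial-like against stromal-like cells (Junb; background 50.7%), and 0 of 10 for the other comparisons among large classes (backgrounds 64.2% and 58.3%). Without the lot as a block, 0 of 10 members passed in each of these 3 comparisons. The share of all genes called in that fit is not given here, so the 0 cannot be set against a background. In that fit the differences between lots are part of the error, and the cause of the lost calls was not tested.

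Germ-like cells held less of every member. Fos was at 194, 203 and 540 CPM, Jun at 234, 172 and 537 CPM, Jund at 474, 494 and 784 CPM and Atf3 at 13.5, 12.1 and 127 CPM. These were the lowest values of the 6 classes in each lot, and Nfatc2 was the exception in that order. All 10 members were called lower than the mean of the 3 large classes, where 82.3% of all genes were called, 40.3% higher and 42% lower. The log2 fold changes ran from -2.89 for Jun (SE 0.17, adjusted p = 1.27e-08) to -1.12 for Nfatc2 (SE 0.25, adjusted p = 0.000726), the latter lost without lot 30, and the median was -2.28 against -0.051 for all genes. For 6 members (Fos, Fosb, Jun, Jund, Egr1, Ier2) the germ-like levels did not overlap those of the large classes (background 53.3%).

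Summed markers of other cell types were set beside these low levels. Summed over the members, germ-like cells held 24.1%, 17.3% and 24.1% of the level of the large classes. The summed markers of pre-granulosa cells (11 genes, of which at most 1 was at 0 in a lot) stood at 15.8%, 9.61% and 16.6%, those of epithelial cells (9 genes, at most 1 at 0) at 27.0%, 24.2% and 26.1% and those of stromal cells (10 genes, none at 0) at 16%, 7.76% and 16%. Barcodes called as doublets made up 14.3%, 8.90% and 16% of germ-like cells. Without them Fos fell to 156, 146 and 346 CPM, Jun to 159, 82.2 and 238 CPM and Atf3 to 9.02, 6.85 and 55.7 CPM. All 10 members were again called lower, Jun at a log2 fold change of -3.78. The share of all genes called without doublets is not given here. The part of free RNA in what remained was not tested. Red-blood-cell-like cells held 17.3%, 8.35% and 37.9% of the members' summed level and 21.7%, 5.18% and 48.8% of that of the pre-granulosa markers.

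Endothelial-like cells, which are known to carry CD31, were lower in 6 members and higher in 1. Fos was at 244, 432 and 1062 CPM (log2 fold change over the large classes -1.39, SE 0.19, adjusted p = 0.000123), and Fosb (-1.33), Egr1 (-1.18), Jun (-1.07), Jund (-0.83) and Ier2 (-0.74) were also called lower. Klf6, at 107, 125 and 267 CPM, was called higher (0.42, SE 0.15, adjusted p = 0.0406), which was lost without lot 29. Of all genes 46.9% were called, 23.5% higher and 23.4% lower, and no member's levels were free of overlap (background 24.8%). Junb, at 138, 290 and 459 CPM, had a log2 fold change of -0.16 (adjusted p = 0.562). The summed pre-granulosa markers in these cells were 22.3%, 19.1% and 31.1% of the level in the large classes, beside 43.5%, 50.6% and 58.1% for the members, and their part in the members' levels was not tested.

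The S100a8/C1qa cluster held Klf6 at 386, 409.8 and 699 CPM. This was the highest of the 6 classes in each lot, without overlap with the large classes. The log2 fold change was 2.02 (SE 0.16, adjusted p = 5.2e-07 by edgeR's quasi-likelihood test). High Klf6 was not particular to it: unnamed clusters outside the 6 classes held 323 to 680 CPM (led by Ryr2 and Lars2) and 171 to 590 CPM (Pax8 and Aldh1a3 among its leading genes). Jund (-0.57), Egr1 (-0.78) and Ier2 (-0.56) were called lower, the last 2 of them not without lot 29. The counts of 1 higher and 3 lower stand beside 36.0% of all genes, 18.4% higher and 17.6% lower, and the 1 member free of overlap beside 28.4%. Atf3, at 142, 157 and 877 CPM, had a log2 fold change of 0.61 (SE 0.24, adjusted p = 0.0796). Pre-granulosa markers summed to 43.0%, 24.6% and 37.7% of the level in the large classes, and their part was not tested. Nfatc2 was at 18 and 15 UMIs in lots 26 and 30 and at 0 in lot 29, where a count of 0 allows up to 10.7 CPM.

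Lot 30 had the highest level in all 60 combinations of a member and one of the 6 classes. The share of all genes that were highest in lot 30 is not given here. The members were chosen with earlier results of these data known, so the count is a description and no independent support. The order of lots 26 and 29 was not shared: in pre-granulosa-like cells lot 29 was at 1.43 times lot 26 for Junb and at 0.736 times for Fosb. In red-blood-cell-like cells lot 30 was the highest for the 9 members other than Nfatc2, with Fos at 162, 111 and 835 CPM. Atf3 in lot 30 was 10.6 times its level in lot 26 in pre-granulosa-like cells, 8.91 times in epithelial-like and 15.4 times in stromal-like cells. With 1 library per lot, no test between lots was possible, and a property of the lot and of its library cannot be told apart.

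Other immediate early genes, taken as a list of 41 of which 40 were tested, were mostly low in germ-like cells too. There 34 were lower and 3 higher, with a median log2 fold change of -1.82, and the 92.5% called stand beside 82.3% of all genes. The antiproliferative gene Btg2 (-2.87), the cytokine signalling inhibitor Socs3 (-2.85) and the matricellular gene Cyr61 (-2.79) fell most, and the phosphatase genes Dusp2 (1.75) and Dusp5 (1.34) and the zinc finger gene Klf10 (1.12) were higher. Btg2 was at 37.9, 31.1 and 106 CPM in germ-like cells and at 148 to 735 CPM in the large classes, so that its levels did not overlap (background 53.3%).

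Among the large classes, the list split in both directions. The share called was 55% for pre-granulosa-like over stromal-like cells (66.6% of all genes), 57.5% for pre-granulosa-like over epithelial-like cells (61.5% of all genes) and 70% for epithelial-like over stromal-like cells (52.5% of all genes). Pre-granulosa-like over stromal-like cells had 12 higher and 10 lower, led by Fosl1 (2.28), Gadd45g (1.86) and Klf4 (1.08) and by Socs3 (-2.07), Dusp6 (-1.89) and Ier5 (-1.24). Fosl1 was at 1.84 CPM or less in each of these sums. Pre-granulosa-like over epithelial-like cells had 15 higher and 8 lower, led by Klf2 (1.75), Sgk1 (1.67) and Gadd45g (1.57) and by the stress gene Gadd45b (-1.79), Socs3 (-1.24) and Trib1 (-1.13). Epithelial-like over stromal-like cells had 9 higher and 19 lower, led by Gadd45b (1.53), Csrnp1 (0.98) and Trib1 (0.92) and by the kinase genes Plk2 (-2.42) and Sgk1 (-1.73) and by Dusp6 (-1.68).

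Socs3 followed the order of Junb in part, being highest in stromal-like cells in each lot (75.4, 138 and 239 CPM), with epithelial-like cells next (48.6, 73.0 and 110 CPM) and pre-granulosa-like cells lowest (23.4, 26.1 and 46.0 CPM). Endothelial-like cells had 11 higher and 11 lower (55% called, against 46.9% of all genes), led by Dusp2 (6.37, from under 2 CPM in the large classes), Plk2 (3.23) and Sgk1 (3.03) and by Nr4a3 (-3.51, at under 1 CPM in these cells), Cebpb (-1.73) and Egr2 (-1.62). In the S100a8/C1qa cluster 15 were higher and 3 lower (45% called, against 36.0% of all genes). Dusp2 (5.94), the NF-kappaB inhibitor Nfkbia (2.11) and Ier3 (2.09) led, and Cyr61 (-1.46), Socs3 (-1.12) and Klf4 (-0.98) were the 3 that were lower.

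The AP-1 partners, 10 genes whose products can pair with FOS or JUN or bind related sites, were lower in pre-granulosa-like than in stromal-like cells in 8 cases and higher in 0, with a median of -1.12. That is 80% called, against 66.6% of all genes, of which 33.8% were lower. Batf3 (-2.81) and Maf (-2.39) were among them. Maf was at 292, 208 and 277 CPM in stromal-like cells and at 38.5 to 53.1 CPM in the other large classes. Its stromal-like levels did not overlap those of pre-granulosa-like or epithelial-like cells (backgrounds 64.2% and 50.7% of all genes). Epithelial-like over stromal-like cells had 7 lower and 0 higher (Maf -2.32 and Batf -1.66 among them), and pre-granulosa-like over epithelial-like cells had 1 higher (Crem, 0.37) and 3 lower (Batf3 -2.33, Atf4 -0.48, Creb1 -0.38). Germ-like cells had 1 higher (Batf3, 1.66) and 6 lower (Maf -2.64 and Jdp2 -1.28 among them). Endothelial-like cells had 4 higher (Crem 1.88, Batf3 1.57, Atf7 0.51 leading) and 2 lower (Maf -0.79, Atf2 -0.35), and the S100a8/C1qa cluster 5 higher (Batf 6.63, from under 1 CPM in the large classes, and Maf 2.61 and Batf3 1.38 among them) and 1 lower (Atf2, -0.40). The shares called in these other 5 comparisons were 70%, 40%, 70%, 60% and 60%, in the order given, beside 52.5%, 61.5%, 82.3%, 46.9% and 36.0% of all genes.

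Of the 11 upstream regulators, kinases and factors that act on the promoters of immediate early genes, Elk3 had the largest called change in 3 of the 6 comparisons. It was lower in epithelial-like than in stromal-like cells (log2 fold change -1.81) and in germ-like cells (-2.0) and higher in endothelial-like cells (2.64). Srf was lower in germ-like cells (-0.76), and both pre-granulosa-like (-0.27) and epithelial-like cells (-0.30) were below stromal-like cells in Srf. Over the list, 3 were higher and 3 lower for pre-granulosa-like over stromal-like cells (Mkl1 1.27, Mapk9 0.56, Mapk3 0.46, and below 0 Elk3 -1.04, Mapk8 -0.53 and Srf). Pre-granulosa-like over epithelial-like cells had 5 higher (Mkl1 1.04, Mapk9 0.84, Elk3 0.77 leading) and 3 lower (Mapk8 -0.29 and Mapk14 -0.17 among them), and epithelial-like over stromal-like cells 3 higher (Mapk3 0.28, Mkl1 0.23, Mapk14 0.21) and 6 lower (Elk3, Srf and Mapk9 -0.28 leading). Germ-like cells had 3 higher (Mapk14 1.23, Mapk8 0.67, Elk1 0.31) and 5 lower (Elk3, Elk4 -1.06 and Srf leading). Endothelial-like cells had 7 higher (Elk3, Mkl2 1.01, Mapk3 0.96 leading) and 1 lower (Elk1, -0.61), and the S100a8/C1qa cluster 3 higher (Mapk14 1.07, Elk3 0.84, Mapk3 0.54) and 1 lower (Elk1, -1.24). The shares called in the 6 comparisons were 54.5%, 72.7%, 81.8%, 72.7%, 72.7% and 36.4%, beside 66.6%, 61.5%, 52.5%, 82.3%, 46.9% and 36.0% of all genes.

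The NFAT pathway list of 9 genes held the relatives of Nfatc2, the calcineurin subunits and their inhibitors. Pre-granulosa-like over stromal-like cells had 1 higher (the calcineurin inhibitor gene Rcan2, 1.08) and 5 lower, with Nfatc4 (-0.94), the calcineurin subunit gene Ppp3cb (-0.87) and Nfatc1 (-0.87) leading, while Nfatc2 was higher there. Over epithelial-like cells 4 were higher (Nfatc1 1.08, Nfat5 0.93 and Nfatc4 0.75 leading) and 1 lower (Ppp3cb, -0.56). Epithelial-like over stromal-like cells had 1 higher (Rcan2, 1.27) and 5 lower (Nfatc1 -1.94, Nfatc4 -1.69, Nfat5 -1.18 leading). Germ-like cells had 4 higher (Ppp3cb 1.02, Nfatc1 0.97, Nfatc3 0.37 leading) and 3 lower (Nfatc4 -1.77, Ppp3ca -1.24, Nfat5 -0.31). Endothelial-like cells had 5 higher (Nfatc1 3.80, Rcan1 0.60, Ppp3ca 0.40 leading) and 1 lower (Nfatc4, -1.32), and the S100a8/C1qa cluster 2 higher (Nfatc1 3.69, Ppp3ca 0.42) and 0 lower. In the same order of comparisons, 66.7%, 55.6%, 66.7%, 77.8%, 66.7% and 22.2% of the list were called, beside the 66.6%, 61.5%, 52.5%, 82.3%, 46.9% and 36.0% of all genes. Nfatc1 was at 11 to 20.7 CPM in endothelial-like and at 3.85 CPM or less in the large classes.

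Heat shock genes, a list of 9, were added because chaperone genes answer to stress as Atf3 does. In pre-granulosa-like over stromal-like cells 5 were higher and 0 lower (Hspb1 2.16, Hspa1b 1.86, Hspa1a 1.49 leading), and in epithelial-like over stromal-like cells 8 and 0 (Hspa1b 1.24, Hspb1 1.23, Hspa1a 1.03 leading). Pre-granulosa-like over epithelial-like cells had 4 higher (Hspb1 0.93, Hspa1b 0.62, Dnajb1 0.51 leading) and 4 lower (Hsp90aa1 -0.74, Hsph1 -0.51, Hspd1 -0.45 leading). Hspa1a was at 104, 95.1 and 507 CPM in pre-granulosa-like, 69.8, 66.0 and 427 CPM in epithelial-like and 32.4, 38.7 and 213 CPM in stromal-like cells, with lot 30 far above the others in each. Germ-like cells had 5 higher (Hsp90aa1 2.03, Hsph1 1.02, Hspe1 0.68 leading) and 4 lower (Hspa1b -2.48, Hspa1a -2.44, Hspb1 -1.49 leading). Endothelial-like cells had 1 higher (Hspa8, 0.28) and 4 lower (Hspa1a -1.22, Hspa1b -0.75, Dnajb1 -0.75 leading), and the S100a8/C1qa cluster 1 higher (Hspa8, 0.32) and 1 lower (Hspb1, -0.89). Of the heat shock list, 55.6% were called for pre-granulosa-like over stromal-like cells (66.6% of all genes), 88.9% in each of the other comparisons of large classes (61.5% and 52.5% of all genes), 100% in germ-like cells (82.3%), 55.6% in endothelial-like cells (46.9%) and 22.2% in the S100a8/C1qa cluster (36.0%). The genes named from the lists had adjusted p of 0.0470 or less by edgeR's quasi-likelihood test.

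Likeness of pattern was measured as Pearson's r of log2(CPM + 1) over the 18 sums of 6 classes and 3 lots, among 9430 genes. These sums share lots, libraries and free RNA, so r is a description. For Fos the 5 genes most alike were Egr1 (0.96), Jun (0.95), Btg2 (0.95), Coq10b (0.95) and Jund (0.94). For Atf3 they were Hspa1b (0.93), Hspa1a (0.93), Dusp1 (0.87), Nr4a2 (0.85) and Btg2 (0.85), none of them a member. For Nfatc2 they included Nfil3 (0.90), Clk3 (0.88), Dnajb1 (0.85) and Ankrd13c (0.79). Fos ranked 15 in likeness to Atf3 and 119 in likeness to Nfatc2.

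Within cells, the members were compared after thinning each cell to 4000 UMIs, which left out 835 cells. Fos had a UMI in 93.2%, 96.2% and 99.4% of pre-granulosa-like, 82.5%, 93.4% and 98.6% of epithelial-like and 86.6%, 95.9% and 99.4% of stromal-like cells. In germ-like cells the share was 48.9%, 43.2% and 71.8%, and in red-blood-cell-like cells 31.6%, 26.5% and 63.6%. Median UMIs per cell were 21715, 18134.5 and 23974 in germ-like and 7493, 10991 and 12097 in red-blood-cell-like cells, and the exact 95% intervals of both classes overlapped in each lot (45.2% to 52.5% and 12.6% to 56.6% in lot 26). The germ-like share was the higher one in each lot, but red-blood-cell-like cells were few and their intervals wide. The overlap therefore cannot decide whether a Fos UMI in a germ-like cell came from that cell, which was not tested. Shares over all lots ran from 99.3% ± 0.42 (SD, n = 3 lots) for Jund down to 4.74% ± 4.82 for Nfatc2 in pre-granulosa-like cells.

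Since most cells of the large classes held Fos, Jun and Jund, a share of cells with both could hardly exceed the product of the single shares. The median of that ratio over the 45 pairs of members was 1.01 ± 0.0075 (SD, n = 3 lots) in pre-granulosa-like, 1.02 ± 0.014 in epithelial-like and 1.02 ± 0.016 in stromal-like cells, beside 1.0 for pairs of a member and a reference gene (Hprt, Tbp and 8 others). The highest ratios with enough cells were found for the scarcer members. They were Atf3 and Nfatc2 (1.25 ± 0.18), Klf6 and Nfatc2 (1.22 ± 0.19) and Fosb and Nfatc2 (1.15 ± 0.043) in pre-granulosa-like cells, followed by Atf3 and Klf6 (1.12) and Fosb and Atf3 (1.09). In epithelial-like cells Atf3 and Klf6 (1.16 ± 0.13) and Junb and Klf6 (1.13) led, followed by Fosb and Atf3, Fosb and Junb, and Atf3 and Egr1 (1.08 each). In stromal-like cells Fosb and Atf3 (1.16 ± 0.095) and Egr1 and Nfatc2 (1.11) led, followed by Atf3 and Klf6 (1.10), Fos and Nfatc2 (1.07) and Fosb and Egr1 (1.05).

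**Figure D3:**
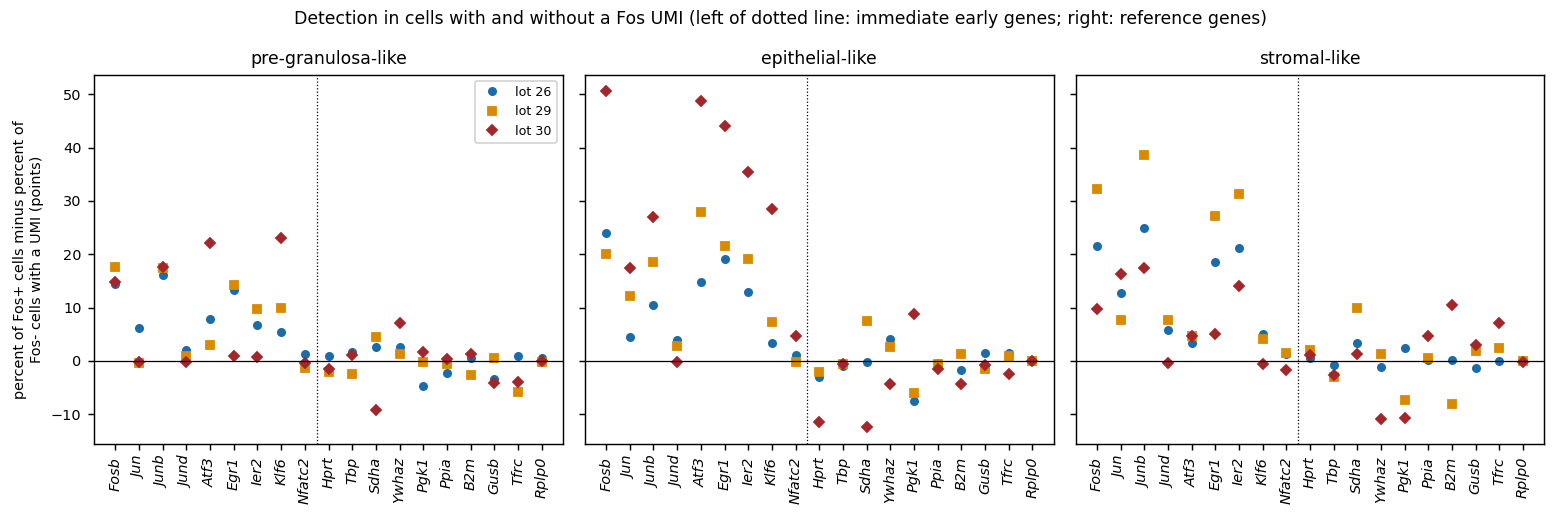
Share of cells with a UMI of each gene among cells with a Fos UMI minus the share among cells without one, in percentage points, for members and 10 reference genes, 1 point per lot. Junb, Fosb, Atf3, Egr1 and Ier2 lie above 0 in each class and lot, and the reference genes lie on both sides of 0.

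Several members were found more often in cells with a Fos UMI than in cells without one. Cells without one numbered 269, 124 and 28 in pre-granulosa-like, 284, 130 and 34 in epithelial-like and 270, 69 and 12 in stromal-like cells, so that lot 30 gives a thin base. In pre-granulosa-like cells Junb differed by 16.2, 17.3 and 17.5 percentage points and Fosb by 14.3, 17.6 and 14.7, while Egr1 differed by 13.4, 14.3 and 0.991. In epithelial-like cells Fosb differed by 24.0, 20.01 and 50.6 points, Atf3 by 14.7, 27.99 and 48.8 and Egr1 by 19.2, 21.5 and 44.0.

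In stromal-like cells Junb differed by 24.95, 38.5 and 17.4 points and Ier2 by 21.2, 31.3 and 14.0, but Atf3 by 3.36, 4.73 and 4.70. Junb, Fosb, Atf3, Egr1 and Ier2 were above 0 in each large class and lot. The lowest values of Egr1 and Ier2, in pre-granulosa-like cells, were 0.991 and 0.733 points. Jund, which most cells held, had mean differences of 0.906, 2.16 and 4.28 points in the 3 classes, and Nfatc2 -0.148, 1.78 and 0.314. For the 10 reference genes the means over lots lay between -5.54 and 4.85 points. Their values in single lots lay between -12.5 (Sdha, epithelial-like) and 10.4 points (B2m, stromal-like). Member differences inside that range, such as those of Atf3 in stromal-like cells, were no larger than reference genes gave. Cells of 1 lot are not replicates, so these are descriptions.

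**Figure D4:**
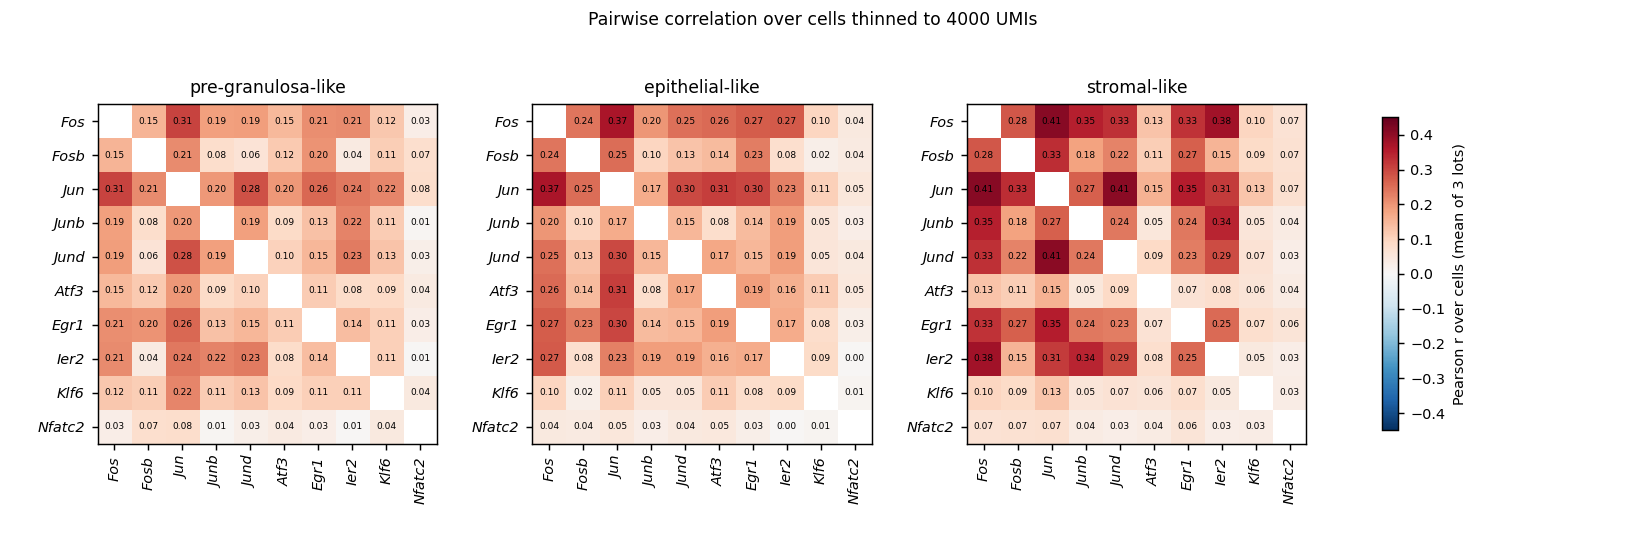
Pearson's r of ln(1 + UMI) over cells thinned to 4000 UMIs for each pair of members, as the mean of 3 lots, in the 3 large classes. The deepest red is at Fos with Jun (0.31, 0.37 and 0.41) and the rows of Nfatc2 are near 0.

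The r of Fos with Jun over cells was 0.31 in pre-granulosa-like, 0.37 in epithelial-like and 0.41 in stromal-like cells, as means of lots with 1620 to 4502 cells. Fos with Junb was at 0.19, 0.20 and 0.35 in the same order of classes, and Fos with Ier2 at 0.21, 0.27 and 0.38. Jun with Atf3 had its highest value in epithelial-like cells (0.20, 0.31 and 0.15), and Jun with Klf6 in pre-granulosa-like cells (0.22, 0.11 and 0.13). The mean share of cells with an Atf3 UMI was also highest in epithelial-like cells (42.5%, 56.6% and 22.1%). For Klf6 it was highest in pre-granulosa-like cells (39.0%, 24.3% and 34.2%). The share of Fos did not follow its r with Jun (96.3%, 91.5% and 94.0%), and that of Nfatc2 was 4.74% or less. How far such shares set the differences in r between classes or lots was not tested. The median over member pairs was 0.0853 to 0.185 across classes and lots, and lot 30 was the highest in each class. Medians for pairs of a member and a reference gene were -0.0156 to 0.00192, and the highest r of a pair of reference genes was 0.160. Cells within a lot share a library, and thinning holds their depth equal.

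Ranked over all genes with a UMI in at least 2% of the cells (9477 to 9678 genes), Jun was first and Ier2 second in r with Fos in each of the 3 classes. Members took 7, 7 and 6 of the 10 highest places, and the others were Btg2 and the Krüppel-like gene Klf4 in all 3 classes, Dnajb1 in pre-granulosa-like cells, the MAP kinase phosphatase gene Dusp1 in epithelial-like and stromal-like cells and Cyr61 in stromal-like cells. Btg2, at 0.20, 0.25 and 0.28, was the closest non-member in each.

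**Figure D5:**
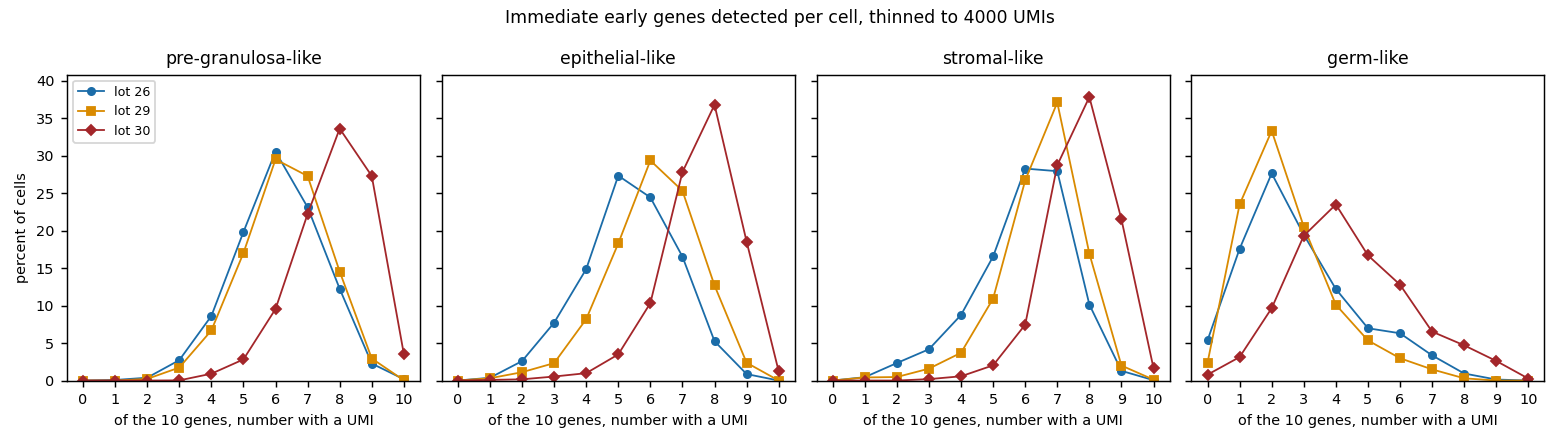
Percent of cells by how many of the 10 genes had a UMI, after thinning to 4000 UMIs, in 4 classes, 1 line per lot. The lines of lot 30 peak at 8 genes in the large classes and at 4 in germ-like cells, to the right of lots 26 and 29.

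The number of members with a UMI per cell averaged 6.08, 6.29 and 7.81 in pre-granulosa-like, 5.37, 6.10 and 7.54 in epithelial-like, 5.94, 6.50 and 7.72 in stromal-like and 2.85, 2.50 and 4.44 in germ-like cells. Each distribution had 1 peak, and in lot 30 the whole of it was shifted, so that 86.7% of pre-granulosa-like cells held 7 or more members against 37.8% and 44.8% in lots 26 and 29. The variance was 1.35 to 1.47 times that of independent detection in pre-granulosa-like, 1.51 to 1.56 times in epithelial-like and 1.33 to 1.75 times in stromal-like cells, and 0.959 to 1.05 times for the reference genes. In germ-like cells it was 2.21, 1.64 and 1.94 times. There, 72.7%, 100% and 77.8% of the cells with 7 or more members were called doublets (33, 6 and 54 cells), against 0.796%, 1.01% and 0% of those with 0 to 2 members, and among pairs held together by at least 20 cells in every lot the highest ratios were those of Jun and Junb (1.47 ± 0.23) and Junb and Ier2 (1.39), followed by Fos and Junb (1.35), Jun and Egr1 (1.31) and Fos and Fosb (1.30). A germ-like cell with many members was thus mostly one called as a doublet.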

How the data were processed

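The 3 lots of thawed fetal ovarian somatic cells were profiled by 10X 3′ scRNA-seq. The deposited values are raw UMI counts per gene and cell, made by the authors with UMI-tools, STAR 2.7 (uniquely mapped reads) and featureCounts 2.0.1 on GRCm38. The annotation release is not given in the sources used here. Lots held 126680758, 87494974 and 141920060 UMIs. Kept barcodes had 200 to 9000 genes and at most 10% mitochondrial UMIs. Clustering used Seurat 5.3.0 (2000 variable genes, 50 components, resolution 0.8). Scrublet calls (scanpy 1.11.5) were not removed. UMIs were summed per class and lot (18 sums) and tested with edgeR 4.0.16 in R 4.3.3 (TMM, filterByExpr, lot as block, Benjamini-Hochberg over 14982 genes) and checked on simulated data for pre-granulosa-like versus stromal-like cells. There 22 of 204 calls (10.8%) were false at the threshold of 0.05, so calls with an adjusted p near it are less certain than that value says. Sums of a lot come from 1 pool of cells, and 44 of 45 same-lot pairs of sums had correlated deviations above 0.1. Intervals are exact (Poisson, Clopper-Pearson) and cover counting error only, and the limit of a count of 0 is 3 UMIs. From each list, the 3 genes with the largest change per direction and comparison were named, except a few that are not reported here. Members and lists were chosen with earlier results of these data known. Promoter sequences are from RefSeq.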

Additional observations from a re-analysis of the deposited data

Results flagged for a closer look

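The within-lot log2 ratio of some members between large classes had opposite signs in different lots, with counting intervals on either side of 0. These differences between lots were not tested, since each lot is 1 library and the intervals cover counting error only. For pre-granulosa-like over stromal-like cells, Fos was at 0.171, -0.292 and -0.241 in lots 26, 29 and 30, Jun at 0.238, -0.112 and -0.095, and Ier2 at 0.354, -0.14 and -0.26. For pre-granulosa-like over epithelial-like cells, Jun was at 0.082, -0.103 and -0.073, Egr1 at 0.215, -0.134 and -0.268, and Fosb at 0.229 in lot 26 and -0.06 in lot 30. For epithelial-like over stromal-like cells, Jun was at 0.156 in lot 26 and -0.022 in lot 30, and Jund at 0.142 and -0.051. Lot 26 was the positive lot in each of these.

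Cells outside the compared classes held the highest Fosb of the 15 clusters with at least 50 cells in every lot. An unnamed cluster of 286, 98 and 348 cells, led by Ryr2 and Lars2 and with median UMIs of 2936, 1677 and 2782.5, had Fosb at 1543, 1734 and 2600 CPM. It also held Egr1 at 1206, 1563 and 1915 CPM and Nfatc2 at 17.1, 48.2 and 152 CPM, while Junb was at 113, 225 and 346 CPM. Klf6 in this cluster was at 323 to 680 CPM across lots. The cluster raised all 11 pre-granulosa markers, its best list. It was left unnamed for its few UMIs and for having none of those markers among its leading genes, so its cells are not in the pre-granulosa-like levels. Mitochondrial UMIs took a median 5.25%, 4.81% and 5.05% of these cells, and the part of low RNA content in their levels was not tested. Another unnamed cluster, of 270, 184 and 374 cells, had Pax8 and Aldh1a3 among its leading genes. It raised 9 of 11 pre-granulosa markers and was left unnamed because the mesonephric tubule list scored close to the pre-granulosa list. Of the 15 clusters it had the highest mean Fos (1916 CPM), Jun (3119 CPM), Jund (2153 CPM) and Ier2 (1491 CPM). Steroidogenic-like, Sertoli-like and neural-crest-like cells were also outside the 6 compared classes.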

How the results depend on the processing

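Of 37 calls of a member in a comparison, 28 held under every alternative other than the fit without the replicate block. That fit left 0 members called in each comparison of 2 large classes, 1 for endothelial-like cells and 1 for the S100a8/C1qa cluster, and 8 for germ-like cells. Without lot 30, 3 members were called for pre-granulosa-like over stromal-like and 3 for epithelial-like over stromal-like cells, and without lot 29, 2 for the S100a8/C1qa cluster. With each lot left out, the counts were 3 to 6, 5 to 6 and 3 to 8 for pre-granulosa-like over stromal-like, pre-granulosa-like over epithelial-like and epithelial-like over stromal-like cells, 9 to 10 for germ-like, 6 to 7 for endothelial-like and 2 to 6 for the S100a8/C1qa cluster. The share of all genes called under each alternative is not given here, so these counts cannot be read as particular to the members. The cause of these losses was not tested.

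The sign turned for members that were not called. For pre-granulosa-like over stromal-like cells, Fos was at -0.17 to 0.053, Jun at -0.0073 to 0.16 and Ier2 at -0.10 to 0.21 over lots left out, and Fos at 0.10 at resolution 0.4. Jun (pre-granulosa-like over epithelial-like) was at -0.063 to 0.093 over lots left out, 0.019 with RLE size factors, 0.018 with DESeq2, 0.051 at resolution 0.4, 0.013 with 30 components and 0.0067 with lots clustered alone. Egr1 there was at -0.17 to 0.068 over lots left out and 0.036 at resolution 0.4, and Junb (S100a8/C1qa cluster) at -0.097 to 0.28 over lots left out. Of 1010 values for single members, 920 kept direction and side of the threshold, 48 lost and 26 gained a call.

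Thinned to 2000 UMIs, the co-detection ratio was 1.03 in pre-granulosa-like, 1.04 in epithelial-like and 1.04 in stromal-like cells, and cells with a Fos UMI were 86.7%, 79.995%, 85.6% and, for germ-like cells, 37.4%. Without thinning, germ-like cells had a ratio of 1.05 and a Fos share of 89.9%. Over lots left out, the ratio was 1.006 to 1.014, 1.02 to 1.03, 1.01 to 1.02 and 1.19 to 1.37 in these 4 classes, and the share 94.7% to 97.8%, 87.9% to 96.0%, 91.3% to 97.7% and 46.0% to 60.3%. With each lot clustered alone, the comparison of the S100a8/C1qa cluster could not be fitted. No cluster had over 80% of its cells in 1 lot.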
